A study of Mus musculus with 27 samples.

Results

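The regions described here are the intervals of open chromatin that carry the name of wild-type tumour macrophages in a merged ATAC-seq list. The members were chosen by the name the authors gave each region, and 17476 of the 30189 regions in the list were named for WT. The rule also left out a short window of chromosome 2, whose 5 regions between 98492747 and 98497661 were all named for KO, so that 30184 regions were compared and 12708 of them were named for KO. The names are read here as the genotype whose library set gave the entry. A WT name does not say that the site was closed in KO.

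The macrophages came from tumours of MC38, a mouse colon adenocarcinoma line. WT mice carried a floxed Ogt gene, and KO mice carried the same floxed gene together with Lyz2-cre, in which the recombinase is placed in the lysozyme 2 locus and acts in myeloid cells. Both groups thus share the floxed Ogt gene and the tumour model, and cre is found in KO alone. ATAC-seq had 3 WT and 3 KO libraries, but the deposited result is 1 merged list, whose names give a genotype and no library. No comparison between the names can therefore be tested over libraries, and the intervals below are 95% Wilson intervals that cover counting error only, over regions that are not independent replicates. Age, sex and pooling of the animals are not given in the labels, and the protocol text of the ATAC samples describes fixation and sonication without a transposition step.

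ATAC-seq marks open chromatin with a transposase that inserts adapters where DNA is not covered by nucleosomes. In macrophages such sites lie at gene starts and at enhancers, which the lineage factor PU.1 opens together with C/EBP and AP-1 factors. EGR2, the factor profiled by CUT&Tag in the same study, is a zinc finger protein of the early growth response family that takes part in alternative activation of macrophages. Ogt encodes the enzyme that attaches O-GlcNAc to proteins.

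RNA-seq libraries of the same cell type, which are separate samples, held 7032540 to 32406170 counts and were used to check the label. In the 3 WT libraries the 16 macrophage genes of the marker list summed to 6871 to 6952 CPM (the count of a gene relative to its library's total), and in the 3 KO libraries to 6744 to 6929 CPM. All 16 had a WT mean of at least 1 CPM, as did 13 of 14 T and NK cell genes, 6 of 7 dendritic cell genes and 25.4% of all gene models, so the level and not this count sets the macrophage list apart. Csf1r, the receptor for colony stimulating factor 1, had 964, 924 and 904 CPM, and Spi1, which encodes PU.1, had 638, 610 and 639 CPM. The lists of other cell types were lower in sum, and the ranges of WT and KO did not overlap for any of them but the B cell genes; these levels have no test here. The T and NK cell genes summed to 232 to 247 CPM in WT and 392 to 403 CPM in KO, and Cd8a, a subunit of the CD8 co-receptor, had 23.6, 21.4 and 23.6 CPM in WT against 52.5, 58.1 and 54.9 CPM in KO. The dendritic cell genes summed to 414 to 439 CPM in WT and 282 to 292 CPM in KO, but they did not move together. Ccr7 (213, 197 and 208 CPM in WT, 85.5, 82.8 and 87.5 in KO) and Fscn1 had the largest falls, and Zbtb46 was also lower. Xcr1, a chemokine receptor of cross-presenting dendritic cells, was higher in KO (42.9, 47.6 and 44.6 CPM) than in WT (11.7, 15.3 and 13.5 CPM). Clec9a was higher in KO too (44.2, 49.4 and 51.7 against 21.6, 20.7 and 17.9 CPM), and Flt3 and Siglech overlapped. The 8 fibroblast and endothelial genes summed to 58.8 to 73.1 CPM in WT and 86.5 to 98.3 CPM in KO, and the 7 neutrophil genes to 90.6 to 100 and 103 to 114 CPM. Most of the neutrophil sum was Csf3r, with 80.4, 81.5 and 79.5 CPM in WT and 100, 97.5 and 106 CPM in KO. S100a9, Cxcr2 and Mmp8 were instead lower in every KO library than in any WT library. Mmp8 had 6.27, 7.79 and 7.68 CPM in WT and 5.06, 4.19 and 5.10 CPM in KO. The other genes of that list had 1.29 CPM or less in every library. The 8 epithelial genes summed to 27.9 to 30.7 CPM in WT and 23.8 to 25.6 CPM in KO, and the 6 B cell genes to 7.72 to 11.1 and 9.71 to 11.8 CPM. In bulk RNA, fewer cells of a type and less RNA per cell cannot be told apart. Elane, Cldn4, Cdx2 and Pdgfra had no count in any WT library. Ogt had 59.2, 56.6 and 47.8 CPM in the WT libraries and 32.9, 40.2 and 34.1 CPM in the KO libraries, and the groups did not overlap. The Ogt counts take in every exon, deleted or not. Lyz2, whose locus carries cre in KO, had 3822, 3739 and 3721 CPM in WT and 86.3, 87.9 and 85.1 CPM in KO. The part of other cell types in the ATAC list, and in which name a region carries, was not tested.

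The coordinates of the merged list were checked before any use. The submitters' processing notes name mm10 (GRCm38), the build of the gene models in the RNA count tables. Open chromatin is usually dense at the starts of expressed genes, yet only 3.37% of regions lay within 1 kb of the start of 1 of 13475 gene models with at least 50 counts in all. For WT-named regions the share was 3.19%, and for KO-named regions 3.61%. The distances from region centres to gene starts piled up at a fixed shift instead. On chromosome 11 the most frequent shift was 109 kb, with 562 pairs of a region and a start in a bin of 500 bp against a median of 20 pairs per bin, and moving all regions of that chromosome by this shift raised the share near a start from 3.14% to 31.1%. The most frequent shift was 22.8 kb or more on each of the 20 chromosomes and reached 453 kb on chromosome 8. On chromosome 17 it had 139 pairs against a median of 15 per bin, and on X 32 against 1. A single shift raised the share on every chromosome but chromosome 4, where it was 10.2% as given and 9.83% shifted. Each shift was chosen on these same regions as the one with most pairs, so a rise follows in part from that choice and is not separate support. The regions are thus not in GRCm38 coordinates. No genome or gene models of another mouse build were used here, so positions below are those of the file, counted from 1, with no gene assigned to any region and no sequence read.

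Scores of WT-named regions ran from 4.33 to 2834 with a median of 15.6 and quartiles of 9.07 and 29.4. The score is the authors' own value per region, and the sources used here do not give its scale. KO-named regions had a median of 15.0 and quartiles at 8.83 and 28.1, so the bulk of both distributions lay close together. They differed in the tail. Only 1 WT-named region scored over 1000, against 12 KO-named regions, and 188 WT-named regions (1.08%) scored over 100, against 250 KO-named regions (1.97%). The 10 highest WT-named regions held 1.57% of the summed WT-named score, and the 10 highest KO-named regions held 17.8% of theirs. The highest KO-named scores, 31701, 16291 and 11091, each belonged to 1 region, on chromosomes 12, 9 and 6. At chromosome 9, 3 to 4 Mb, 16 KO-named regions had a median score of 645 and 5 WT-named ones 210. The part of such sites in the difference between the tails was not tested. The share of WT-named regions was 57.9% over the list, and by deciles of the score, which were set after seeing the data, it ran from 54.1% (52.3 to 55.9) in the lowest score decile to 60.5% (58.8 to 62.2) in the seventh decile. In the highest decile, above a score of 50.3, it was 58.2% (56.5 to 60.0). How the list was merged is not stated, and these values describe the regions that the rule chose.

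**Figure D1:**
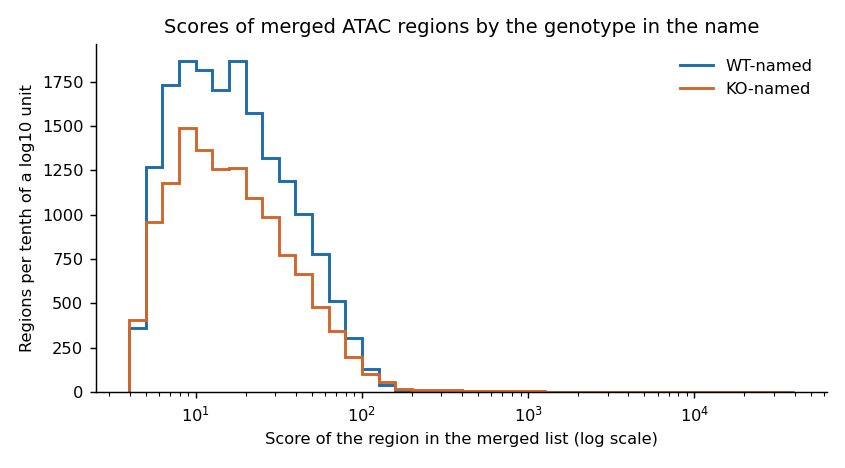
Number of regions (vertical axis) by score on a log axis, for WT-named and KO-named regions outside the chromosome 2 window. Both curves have medians close together, 15.6 and 15.0, and the highest scores are KO-named.

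The numbers in the names were examined after the other values were seen. WT names rose along the genome from 1 to 27675, so 10199 numbers up to the highest were not in the merged list and 63.1% were. KO names rose from 2 to 27033, with 14320 numbers not in the list and 47.0% in it. No source used here states what the numbers are. If each number is a place in a list called on that genotype, a missing KO number marks a KO region that gave way to an overlapping WT-named region. Non-overlapping windows of equal width allow at most 2 such KO regions for each WT-named region, and none of the 6789 runs of WT-named regions between KO-named ones had more. In 2796 runs the WT-named region stood alone between KO-named neighbours, so the numbers missing beside it belong to that one region. Of these, 2338 (83.6%) had exactly 1 missing KO number beside them, 426 (15.2%) had none and 32 had 2 or more. On this reading most lone WT-named regions had a counterpart among the KO numbers.

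Regions with no missing KO number beside them are those that, on this reading, were found in WT alone. Over runs of any length there were 559 of them, 3.21% of the 17437 WT-named regions that could be placed. Other WT-named regions without a counterpart can lie in longer runs, where the numbers do not say which region was replaced. The 559 had low scores, with a median score of 6.69, quartiles of 5.67 and 8.02 and a maximum of 32.9. Lone WT-named regions with 1 missing KO number had a median of 19.7, with quartiles of 12.0 and 36.5. If the merge kept the higher-scoring of 2 overlapping regions, which no source used here states, a region with a counterpart is one that had the higher score, and that would itself raise the second median. The same held for the other name: 878 KO-named regions had no missing WT number beside them, 6.96% of those placed, with a median score of 6.43. The highest of the 559 were at chromosome 6, 136636531 to 136637031 (score 32.9), chromosome 7, 7302098 to 7302598 (30.5), and chromosome 1, 65460769 to 65461269 (25.3).

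**Figure D2:**
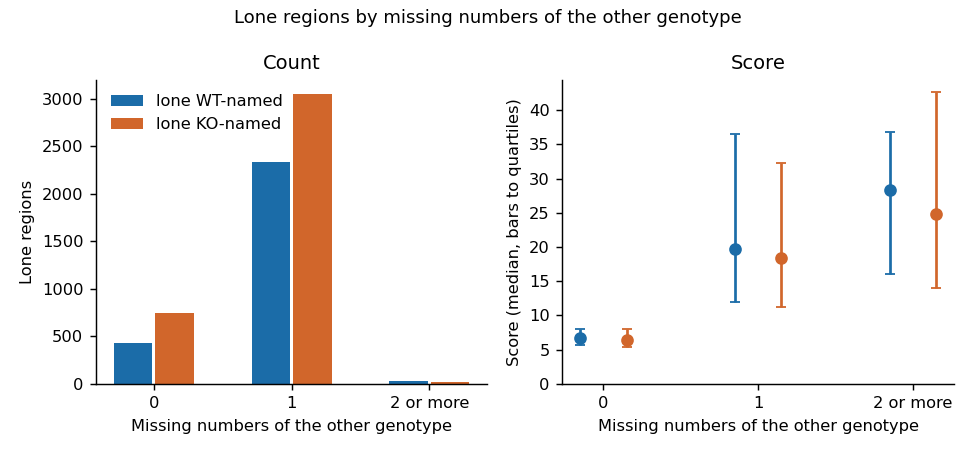
Lone regions, each between neighbours of the other name, by how many numbers of the other genotype are missing beside them. The left panel counts regions and the right panel gives the median score with bars to the quartiles: 426 lone WT-named regions had none missing, with a median of 6.69, and 2338 had 1 missing, with a median of 19.7.

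The 10 highest WT-named scores did not fall on separate sites. Of the 10, 8 lay in 3 short stretches: 3 on chromosome 9 between 3010732 and 3029967, 3 on chromosome X between 168774050 and 168793266, and 2 next to each other on chromosome 1, 24650920 to 24652083. The highest, at chromosome 9, 124254157 to 124254657 (score 2834), had 5 other regions within 50 kb, all KO-named, with scores up to 940. The regions of chromosome 9 in the list ran from 3001887 to 124259373, so this region lay near their end. The stretch at the start of chromosome 9 was mostly KO-named: 2 further WT-named and 15 KO-named regions lay within 50 kb of its highest WT-named member (score 516), and the highest KO-named score there was 1232. On chromosome X the WT-named score reached 923, with 25 other WT-named and 18 KO-named regions within 50 kb. The last region of X in the list ended at 169116104. The region at chromosome 8, 19834598 to 19835098 (score 287) had no other region within 50 kb. In the chromosome 2 window left out by the rule, 5 KO-named regions lay close together and summed to 300464, or 27.5% of all scores in the file. Most of that sum came from 1 region, with a score of 264063. How the scores of the 2 genotypes were put on 1 scale is not given in the sources used here, and the part of that scaling in which name a region carries was not tested.

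Along the genome WT-named regions were found on all autosomes and on X. Chromosome 11 carried 11.4 WT-named regions per Mb and chromosome 19 carried 10.8, the densest values, and X carried 1.83, the lowest. The share of regions named for WT was between 54.4% and 60.9% on 18 of the autosomes. It was 50.8% (48.4 to 53.2) on chromosome 17, the lowest, and 63.6% (59.1 to 67.8) on X, the highest, where the median WT-named score was also the lowest at 11.1. At 34 to 36 Mb of chromosome 17, a stretch picked after seeing the data, 67 of 220 regions (30.5%) were WT-named. Without it the chromosome had 53.9% (51.3 to 56.5).

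**Figure D3:**
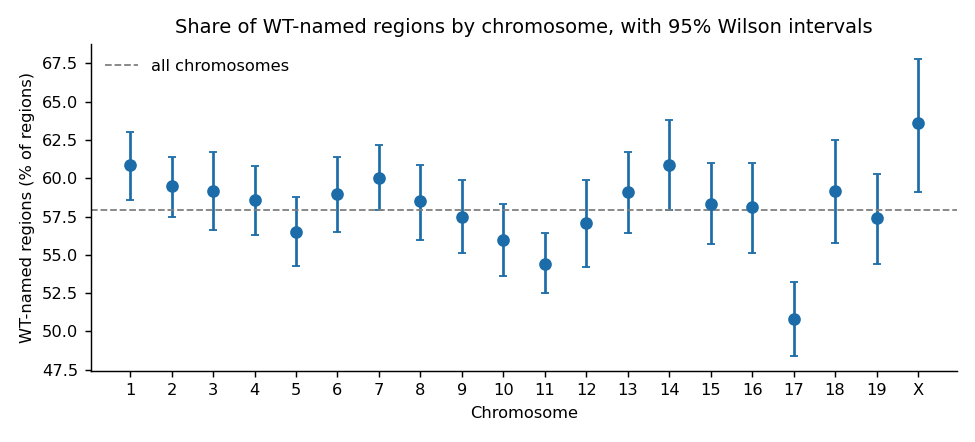
Share of regions named for WT on each chromosome, in percent, with 95% Wilson intervals for counting error. The dashed line is the share over the list, 57.9%, and chromosome 17 at 50.8% and chromosome X at 63.6% are the extremes.

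Windows of 1 Mb, which hold fewer regions each, were also counted after seeing the data. Over the 585 windows with at least 20 regions the share of WT-named regions had a median of 57.1% and quartiles of 50% and 63.6%. It exceeded 80% in 8 windows and lay below 30% in 10. The window richest in WT names was chromosome 13, 67 to 68 Mb, with 23 of 27 regions (85.2%, 67.5 to 94.1), followed by X, 12 to 13 Mb, with 17 of 20 (85.0%), and chromosome 1, 138 to 139 Mb, with 20 of 24 (83.3%). In the first 2 of these the few KO-named regions scored higher at the median than the WT-named ones, at 29.5 against 18.1 and 21.2 against 13.3. The poorest was chromosome 3, 3 to 4 Mb, with 1 WT-named region of 24 (4.17%, 0.739 to 20.2), and chromosome 12, 17 to 18 Mb, had 5 of 27 (18.5%). At chromosome 17, 35 to 36 Mb, 22 of 85 regions were WT-named (25.9%, 17.8 to 36.1), yet those 22 had the higher median score, 21.8 against 15.9 for the 63 KO-named. The largest number of WT-named regions in a window, 51 of 97, was at chromosome 19, 5 to 6 Mb.

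The median gap from a WT-named region to the next WT-named region was 26.9 kb, with quartiles of 6.65 and 84.7 kb, and 9.06% of gaps were under 1 kb. Gaps between KO-named regions had a median of 29.3 kb and quartiles of 5.00 and 115 kb, with 11.3% of gaps under 1 kb. The name of the next region differed more with the name before it at short gaps. Where the next region began within 50 bp, it was WT-named after 67.1% (61.8 to 71.9) of WT-named regions and after 42.2% (36.1 to 48.6) of KO-named regions. At 250 bp to 1 kb the shares were 57.3% (54.8 to 59.8) and 45.3% (42.9 to 47.7), and at 1 to 10 kb 60.5% (59.1 to 61.8) and 50% (48.5 to 51.5). At 50 kb or more they were 62.8% (61.3 to 64.2) and 61.9% (60.0 to 63.8), and the 2 intervals overlapped. After a WT-named region the share at 250 bp to 1 kb was thus below that at 50 kb or more. Of all next regions, 51.2% were WT-named at 250 bp to 1 kb and 62.5% at 50 kb or more. Crowding went with the name as well. Of regions with no other region within 10 kb, 63.6% were WT-named, and of regions with 5 or more others within 10 kb, 41.2% were.

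**Figure D4:**
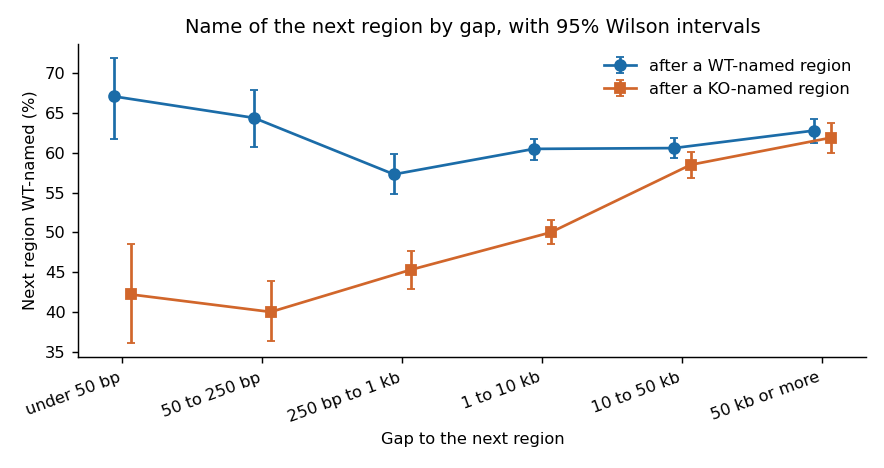
Percent of next regions that are WT-named, by the gap in front of them, after a WT-named and after a KO-named region, with 95% Wilson intervals for counting error. The curves are 67.1% and 42.2% under 50 bp and 62.8% and 61.9% at gaps of 50 kb or more.

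WT-named regions were chained into clusters where the gap between them was at most 10 kb. This gave 12109 units, of which 8749 were single regions, 2226 were pairs and 1134 were clusters of at least 3. The clusters of at least 3 held 4275 regions. Only 9 clusters had 10 or more regions, 119 in all (0.681% of WT-named regions). The median score was 16.2 for single regions, 15.3 in pairs and 15.0 in clusters of 3 to 5, and 18.6 in the 9 largest. The cluster with the most regions lay on X, 168755946 to 168802480, with 26 WT-named regions in 46.5 kb and 16 KO-named regions among them, and WT-named scores from 6.78 to 923. The next was on chromosome 11, 117830489 to 117886809, with 16 WT-named regions (median score 22.1) and 7 KO-named ones (median 31.5). The cluster on chromosome 2, 29509475 to 29569106, had 14 WT-named and 2 KO-named regions, and there the WT-named median of 18.4 was above the KO-named 10.2. On chromosome 1, 154926107 to 154974221, 11 WT-named regions (10.1 to 49.9) enclosed 1 KO-named region (5.92), and on chromosome 14, 25458262 to 25487696, 11 WT-named regions (6.69 to 78.5) enclosed 5. A run of 10 WT-named regions with no KO-named region between them lay on chromosome 14, 71004008 to 71036317; it was singled out after its values were seen. A cluster on chromosome 6, 87473168 to 87525148, also had 11 WT-named regions and came after those named by its summed score.

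EGR2 CUT&Tag was deposited as separate peak lists, which the rule did not use. The titles of the ATAC samples also carry EGR2, although their antibody field says none, so how far the ATAC and EGR2 libraries are independent rests on the labels alone. The EGR2 data have 3 libraries and 1 peak list per genotype, with 5408 WT and 4995 KO peaks. Of the WT-named regions, 817 (4.67%, 4.37 to 5.00) shared at least 1 bp with a WT EGR2 peak, against 5.13% of all regions, and 265 (1.52%, 1.35 to 1.71) with a KO EGR2 peak, against 2.02% of all regions. Of the KO-named regions, 730 (5.74%, 5.35 to 6.16) overlapped a WT EGR2 peak and 345 (2.71%, 2.45 to 3.01) a KO one. WT-named regions were thus below KO-named ones for both EGR2 lists, by 1.07 and 1.20 percentage points, a difference over regions that has no test over libraries. For the WT list the difference was -0.665 percentage points with both names weighted to the same classes of crowding and -0.684 with an overlap of at least 250 bp. For the KO list it was -1.82 among regions above the median score. Overlap with the WT list without the KO list was 4.27% of WT-named and 4.76% of KO-named regions. Both lists were overlapped by 70 WT-named regions (0.401%) and 125 KO-named regions (0.984%), against 0.646% of all regions. EGR2 centres were more frequent around these regions than further away, but were not tightly centred on them. For WT-named regions overlapping a WT EGR2 peak, the median distance between centres was 235 bp, with 22.5% within 100 bp. The nearest WT EGR2 centre lay 500 to 1000 bp away for 297 and 268 WT-named regions on the 2 sides. Within 500 bp the numbers were 403 and 413. The nearest WT EGR2 centre lay within 500 bp of 817 WT-named centres, or 817 per kb of distance, and from 2 to 10 kb away there were 98.7 per kb, a ratio of 8.28. For KO EGR2 peaks the ratio was 3.28, and for KO-named regions the ratios were 7.29 and 4.36. Seen from the other side, 788 of the 5408 WT EGR2 peaks (14.6%) lay on a WT-named region and 704 (13.0%) on a KO-named one. Of the KO EGR2 peaks, 252 of 4995 (5.05%) and 338 (6.77%) did.

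EGR2 overlap rose with the score of the region. Among WT-named regions in the lowest score decile 1.59% (1.09 to 2.32) overlapped a WT EGR2 peak, in the fifth decile 2.14% (1.56 to 2.94), and in the highest decile 16.4% (14.7 to 18.2). KO-named regions went from 2.60% (1.88 to 3.58) to 18.3% (16.3 to 20.5). The median score was 36.5 for WT-named regions with a WT EGR2 peak and 15.3 for those without. WT-named regions had the lower share in 9 of the 10 deciles for the WT list, the seventh being the exception (5.15% against 4.95%), and in 10 of 10 for the KO list. In the highest decile 4.15% (3.32 to 5.19) of WT-named and 9.04% (7.58 to 10.8) of KO-named regions overlapped a KO EGR2 peak.

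**Figure D5:**
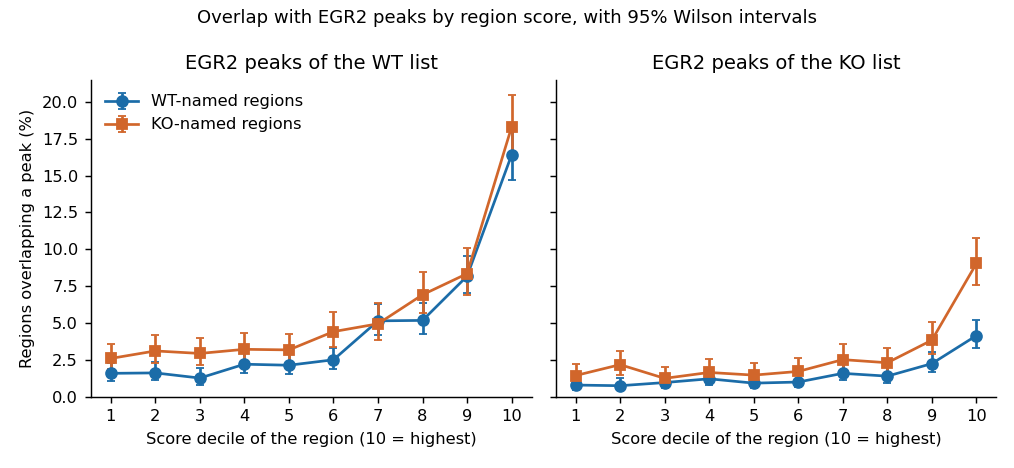
Percent of regions that overlap an EGR2 peak of the WT list (left) or the KO list (right), by decile of the region score, with 95% Wilson intervals for counting error. WT-named regions rise from 1.59% to 16.4% for WT peaks and reach 4.15% for KO peaks in the highest decile, where KO-named regions reach 18.3% and 9.04%.

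Regions with more neighbours overlapped EGR2 peaks more often, in classes set after seeing the data. WT-named regions with no other region within 10 kb overlapped a WT EGR2 peak in 2.45% (2.10 to 2.86) of cases, and those with 5 or more others in 7.76% (6.23 to 9.61), with median scores of 15.6 and 16.9. For KO EGR2 peaks the shares were 0.437% (0.303 to 0.631) and 4.86% (3.67 to 6.40). KO-named regions with no other region within 10 kb had 3.35% (2.82 to 3.99) and 1.91% (1.51 to 2.40) for the WT and KO lists. With 5 or more others they had 7.47% (6.20 to 8.98) and 5.58% (4.49 to 6.92). For the KO list the intervals of the names were apart only for regions with no other region within 10 kb, and overlapped in every other class. For the WT list they overlapped in every class, and with 5 or more others the WT-named share was the higher. By size of the WT-named cluster, the share with a WT EGR2 peak was 3.22% (2.87 to 3.61) of single regions, 5.50% (4.87 to 6.21) in pairs, 6.82% (6.05 to 7.69) in clusters of 3 to 5, 5.38% (3.75 to 7.67) in clusters of 6 to 9 and 11.8% (7.14 to 18.8) in the 9 larger ones. The highest-scoring WT-named regions with a WT EGR2 peak, chosen after their values were seen, were at chromosome 5, 33815336 to 33815836 (score 190, 358 bp between the centres), and chromosome 5, 120751044 to 120751544 (score 168, 499 bp). At chromosome 7, 4139921 to 4140421 (score 145) the centres were 79 bp apart and the EGR2 peak scored 113. None of these 3 overlapped a KO EGR2 peak, as was the case for 747 of the 817 WT-named regions with a WT EGR2 peak. Lack of a KO peak was common under either name: it held for 605 of the 730 KO-named regions with a WT EGR2 peak. Over all regions with a WT EGR2 peak it held for 1352 of 1547.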

How the data were processed

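The members and lists were chosen with earlier results of these data known. The merged ATAC list and the EGR2 lists hold 501 bp intervals with a name and a score deposited by the authors, and no peak caller, merging step or score scale is stated in the labels or files. RNA counts per gene were made by the authors with featureCounts 2.0.6 on GENCODE vM10 models without regard to strand, per the file headers, and were scaled here to CPM by the library total, for WT and KO libraries alike (48058 of 48440 identifiers had a symbol). Overlap means at least 1 shared bp. Clusters chain WT-named regions at gaps up to 10 kb. Named regions were, by rule, the 10 highest WT-named scores and the 5 clusters with most regions. The planned RNA test of neighbouring genes, the naming of genes, the distances to gene starts by library, the sequence motifs and the tests over ATAC libraries were not made, because the coordinates match no gene models used here and names give no library. ATAC depth is unknown. Calculations ran in Python 3.11.15 with numpy 2.4.6 and pandas 2.3.3 and were tested on simulated data.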

Additional observations from a re-analysis of the deposited data

How the results depend on the processing

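WT-named regions stayed below KO-named ones in EGR2 overlap under every alternative run, with differences of -1.18 to -0.665 percentage points for the WT list and -1.82 to -0.906 for the KO list. The difference for the KO list was -1.82 percentage points among regions above the median score, where the shares of both names were higher. They were 2.09% of WT-named and 3.90% of KO-named regions there, against 1.52% and 2.71% over all scores. The cause of the larger difference was not tested. The lowest differences came with both names weighted to the same classes of crowding (-0.665 for the WT list, -0.906 for the KO list). That weighting, the weighting by score deciles, the removal of regions scoring over 100 and the chaining of both names were chosen after seeing the data. Clusters of at least 3 numbered 655 with gaps up to 5 kb, 1724 with gaps up to 20 kb, 254 among WT-named regions above their median score and 2964 with both names chained, against 1134; these settings change the gap allowed or the number of regions chained. Keeping the chromosome 2 window could not change this count, since it held 0 WT-named regions. The share of regions near a GRCm38 gene start was 0.504% within 100 bp, a shorter reach than 1 kb. Alternatives that need neighbouring genes, sequence or single ATAC libraries (left-out libraries included) were not run. No paired analysis was possible because the region names carry a genotype and no replicate number.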

Other observations

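The chromosome 2 window that was left out of the regions also held the highest score of both EGR2 lists. The WT EGR2 list had 3 peaks there, with 66.3% of its summed score, and the KO EGR2 list had 3, with 58.1%. Outside the window the highest KO-named ATAC regions were at chromosome 12, 3159735 to 3160235 (score 31701), chromosome 9, 35216464 to 35216964 (16291), and chromosome 6, 103625883 to 103626383 (11091), each above the highest WT-named score of 2834.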
